A study of Caenorhabditis elegans with 2 samples.

Results

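Transfer RNA (tRNA) genes were examined for peaks of chromatin recovered with a tagged form of HLH-17, a transcription factor of the basic helix-loop-helix family that is expressed in head glia of the worm. The genes were selected by a rule on the deposited peaks: type tRNA in the Ensembl annotation of WBcel235, with a summit of the pooled peak list from 1000 bp upstream to 300 bp downstream of the gene start. The rule chose 216 of 634 tRNA genes. Their presence in the list, signals, ranks, replicate recovery and distances all come from the peaks that chose them, so these values are given as a description, with no test.

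The study carried out chromatin immunoprecipitation and sequencing (ChIP-seq) on whole Caenorhabditis elegans of mixed sex in the first larval stage (L1). The worms were of strain OP643, in which unc-119 (tm4063) mutants carry the transgene wgIs643, made of hlh-17::TY1::EGFP::3xFLAG and the rescue gene unc-119(+). The larvae, 6 h old, had been synchronised by bleaching and starvation, and the precipitation used an antibody against GFP. A single transgenic line in 2 biological replicates forms the only group, so no comparison between groups could be made and the spread is that between those replicates. The tagged protein comes from an inserted copy of the gene, beside any untagged protein of the strain. Each relaxed list (pooled, replicate 1 and replicate 2) holds 30000 peaks, and the list thresholded on reproducibility holds 115. Read numbers are not given in the lists, so depth is unknown.

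tRNA genes are short genes transcribed by RNA polymerase III. Their promoter lies inside the gene, in the A box near the start and the B box further along, which are read by the factor TFIIIC. TFIIIC places TFIIIB, which contains the TATA-binding protein, just upstream of the start, and transcription ends in a run of T. The worm has many identical copies of most tRNA genes, and many of them lie on the X chromosome or in introns of protein-coding genes.

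Sequences of 6 tRNA genes with peaks are shown because these genes carry some of the highest peaks, and because they show how alike the copies are. They are read 5′ to 3′ on the gene's strand from the RefSeq sequence of WBcel235, with the A box core (TNGCNNAG or TNGTNNAG) and the B box core (GTTCNANNC) in capitals. The first 3 are tRNA-Gln genes, the next pair are tRNA-His genes and the last is a tRNA-Thr gene on X.
T03E6.t1 (chrV:16592237-16592308, minus strand): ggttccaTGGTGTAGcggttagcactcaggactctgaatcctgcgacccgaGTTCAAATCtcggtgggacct
F08G5.t3 (chrIV:12416942-12417013, minus strand): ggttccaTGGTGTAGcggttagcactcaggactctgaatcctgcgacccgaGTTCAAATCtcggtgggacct
F08G5.t2 (chrIV:12417249-12417320, minus strand): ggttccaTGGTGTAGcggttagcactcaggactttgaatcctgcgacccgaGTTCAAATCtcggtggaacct
Y7A9D.t1 (chrIV:16388456-16388527, plus strand): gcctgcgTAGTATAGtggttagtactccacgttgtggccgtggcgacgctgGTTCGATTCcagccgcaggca
Y57G11C.t1 (chrIV:14889022-14889093, minus strand): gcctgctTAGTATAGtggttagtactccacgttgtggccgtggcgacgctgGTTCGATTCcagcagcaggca
ZK563.t1 (chrX:3371422-3371493, minus strand): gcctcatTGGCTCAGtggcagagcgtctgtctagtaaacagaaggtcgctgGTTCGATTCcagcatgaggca

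All 6 genes are 72 bases long, with the A box core at base 8 and the B box core at base 52 counted from 1 at the 5′ end. T03E6.t1 and F08G5.t3 differed at 0 bases although they lie on different chromosomes. F08G5.t2 differed from F08G5.t3 at 2 bases (C34T and G68A, the base of F08G5.t3 first). They belong to different sets of identical genes: F08G5.t3 has 4 other identical tRNA genes and F08G5.t2 has 14. Y57G11C.t1 differed from Y7A9D.t1 at 2 bases (G7T and C65A, the base of Y7A9D.t1 first).

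The share of tRNA genes with a peak lay near the share of the genome as a whole. Of the 634 genes, 22 are mitochondrial, and the peak lists hold peaks on the 6 nuclear chromosomes only. Among the 612 nuclear tRNA genes, 216 had a pooled summit in the window (35.3%, exact Clopper-Pearson 95% interval 31.5 to 39.2). The same window held a summit at 31.5% of nuclear genes of all types and at 32.0% of protein-coding genes. If every base position of the nuclear genome, on both strands, is taken as a gene start, the window holds a pooled summit at 34.3% of positions. The tRNA share is thus close to what the density of peaks gives anywhere in the genome. These intervals cover counting error only and treat genes as independent, although neighbouring genes can share a peak.

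The replicates differed in this share. In the list of replicate 1, 244 tRNA genes had a summit in the window (39.9%, 36.0 to 43.9), against 34.2% of base positions and 32.4% of protein-coding genes. In the list of replicate 2, 208 had one (34.0%, 30.2 to 37.9), again against 34.2% of base positions. Both lists held a summit in the window of 118 tRNA genes (19.3%, 16.2 to 22.6), against 15.8% of genes of all types and 15.5% of protein-coding genes. The interval for both lists thus lay above these 2 shares, while no share of base positions was computed for both lists. Other small RNA genes had shares of 21.7% (snRNA), 26.6% (snoRNA) and 24.5% (miRNA) in both lists. The excess over base positions in replicate 1 was not seen in replicate 2, and its cause was not tested.

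Peaks at tRNA genes were spread over the whole ranking. Ranks run from 1 for the highest signal value, the authors' own measure of a peak, whose scale is not stated and differs between lists. For the 216 genes, the highest pooled peak in the window had a median rank of 14029, from 35 to 29757, with quartiles at 5681 and 21331. Its signal value had a median of 71.7, from 56.4 to 209. Because 31 genes had more than 1 summit in the window (up to 3) and the highest was taken, the median rank by gene lies above that of single peaks. The 222 distinct pooled peaks in any tRNA window had a median rank of 15023, against 15000 for the whole list.

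**Figure D1:**
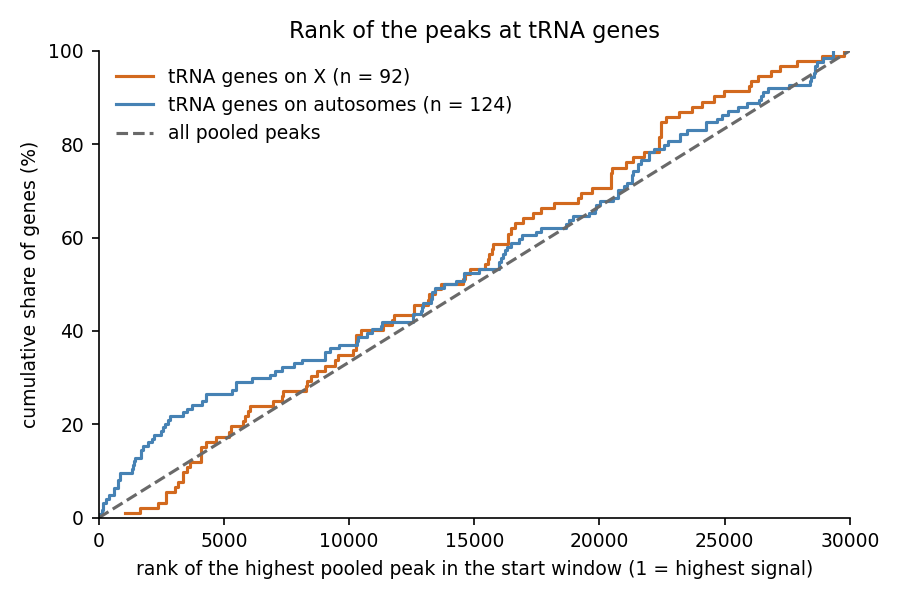
Cumulative share of tRNA genes with a peak (vertical axis, %) by the rank of the highest pooled peak in the start window (horizontal axis), for 92 genes on X and 124 on autosomes, with the whole pooled list as a dashed line. Both curves stay near the dashed line over most of the range, and the autosomal curve lies above it among the first 5000 ranks, where 33 autosomal genes and 16 genes on X are found.

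At the top of the ranking the share of tRNA genes lay at or somewhat above that of base positions, and below that of other small RNA genes. Of 612, 1 had a summit of the 115 thresholded peaks (0.163%, 0.00414 to 0.907), against 0.284% of genes of all types, 0.365% of protein-coding genes and 0.146% of base positions. Among the first 1000 peaks there were 12 tRNA genes (1.96%, 1.02 to 3.40), against 1.28% of base positions and 1.48% of protein-coding genes. The same rank limit gave 10.9% of snRNA genes (6.06 to 17.5), 6.94% of snoRNA genes (4.49 to 10.1) and 4.21% of miRNA genes (2.12 to 7.42). The intervals of snRNA and snoRNA genes did not overlap that of tRNA genes, while that of miRNA genes did, and the differences were not tested. Over the first 5000 peaks the share was 8.01% for tRNA genes (5.98 to 10.4) and 6.34% for base positions. Over the first 10000 peaks the share was 12.7% for tRNA genes (10.2 to 15.6) and 12.5% for base positions. There, snRNA genes gave 14.0% (8.48 to 21.2), snoRNA genes 24.0% (19.6 to 28.8) and miRNA genes 16.9% (12.5 to 22.0). Only the snoRNA interval lay apart from that of tRNA genes at this limit.

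The tRNA gene at the thresholded peak was ZK994.t2, a tRNA-Lys gene (chrV:8499564-8499636, minus strand) in an intron of pxn-1, which encodes a peroxidasin of the extracellular matrix. The peak (chrV:8500338-8500721, ce11) had rank 35 and a pooled signal of 209. Within 100 bp of its summit, replicate 1 had a peak of signal 66.7 and rank 72, and replicate 2 a peak of signal 136 and rank 35. The summit lay 894 bp upstream of ZK994.t2, but 49 bp upstream of the snoRNA gene ZK994.7, and was itself in an intron of pxn-1. The 101 bases around this summit are shown because the peak is the highest of the set, on the plus strand with the E-box (CANNTG, the sequence bound by basic helix-loop-helix proteins) in capitals.
Summit near ZK994.t2 (chrV:8500480-8500580, plus strand): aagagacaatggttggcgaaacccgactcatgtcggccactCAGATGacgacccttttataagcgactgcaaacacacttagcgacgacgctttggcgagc

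The second gene, C15C6.t1, is a tRNA-Arg gene on chromosome I (12198603 to 12198675). Its peak had a pooled signal of 144 and rank 121, and was not thresholded, with rank 103 and signal 61.3 in replicate 1 and rank 432 and signal 87.7 in replicate 2. The summit lay 136 bp downstream of the start, past the end of the gene, and 54 bp upstream of C15C6.5, a gene of type ncRNA. ZK994.t2 and C15C6.t1 were the only 2 of the 216 genes with a rank under 1000 in both replicates.

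At several of the next genes the pooled summit was matched within 100 bp in 1 replicate, while the other replicate had a summit elsewhere in the window. The peak 652 bp upstream of T03E6.t1, in an intron of the cathepsin L gene cpl-1, had rank 172 and signal 137. It ranked 68 in replicate 2 (signal 110), and no summit of replicate 1 lay within 100 bp, but another peak of the window ranked 2268 there. The peak 274 bp upstream of C27A2.t1, a tRNA-Ile gene, had rank 173 and signal 137, and was matched at rank 786 in replicate 2, while replicate 1 had a peak of rank 1187 elsewhere in the window of C27A2.t1. K03H6.t1 (tRNA-Asp) had a peak of rank 299 and signal 129, 954 bp upstream, matched at rank 176 in replicate 2, while the highest peak of replicate 1 in the window of K03H6.t1 ranked 3468. For Y7A9D.t1 (tRNA-His) replicate 2 had no summit in the window at all. Its pooled peak, of rank 396 and signal 125, lay 102 bp upstream of it and 58 bp upstream of Y7A9D.65, a gene of type ncRNA, and ranked 203 in replicate 1. Of the 15 highest genes, 7 had a match within 100 bp in both replicates, and 14 had some summit of both replicates in the window. Among all 216 genes these numbers were 60 and 107 (49.5%). Some of the 15 genes share a peak and are not separate cases. Pooled peaks of like rank at other genes were not counted in this way.

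Pairs of neighbouring genes shared peaks. W09D6.t1 and W09D6.t2, identical tRNA-Pro genes in an intron of rsa-2, a gene of spindle assembly, shared a peak of rank 618 and signal 118. It was matched at rank 1025 in replicate 2, while the highest peak of replicate 1 in the window of W09D6.t1 ranked 2400. B0244.t1 and B0244.t3 are tRNA-Gly genes in an intron of ida-1, a gene of dense-core vesicles. Their common peak had rank 770 and signal 115, and was matched at rank 145 in replicate 1, while the highest peak of replicate 2 in the window of B0244.t1 ranked 4362. F08G5.t2 and F08G5.t3 shared a peak of rank 842 and signal 113, which lay 29 bp downstream of the start of the protein-coding host gene F08G5.3. It ranked 408 in replicate 2 but 25568 in replicate 1. In all, 39 of the 216 genes shared their highest peak with another tRNA gene, and the 216 genes had 196 distinct highest peaks.

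The last of the 15 highest genes were T06H11.t3, K07A1.t1 and Y57G11C.t1. T06H11.t3 (tRNA-Arg), in an intron of the potassium channel gene unc-58, had a pooled rank of 1039 and signal of 111, with rank 5057 in replicate 1 and 1776 in replicate 2. K07A1.t1 (tRNA-Ser) had rank 1343 and signal 107, with a summit 928 bp upstream of it and 18 bp downstream of the start of the pseudogene K07A1.14. Y57G11C.t1 (tRNA-His), in an intron of eps-8, an actin regulator, had rank 1372 and signal 107, with a summit 221 bp upstream that ranked 2227 in replicate 1 and 4631 in replicate 2.

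Replicate recovery at tRNA genes was close to that of all pooled peaks. Of the 216 highest peaks by gene, 60 had a summit within 100 bp in both replicates (27.8%, 21.9 to 34.3), 47 in replicate 1 only, 91 in replicate 2 only and 18 in neither. Among all 30000 pooled peaks, 27.0% were found in both replicates, 47.2% in replicate 1 and 69.5% in replicate 2. The corresponding tRNA shares were 49.5% for replicate 1 and 69.9% for replicate 2. Both sets were thus found more often in replicate 2.

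Recovery fell with rank in the same way for both sets. Among distinct peaks in tRNA windows, both replicates held 44 of 74 within the first 10000 ranks (59.5%, 47.4 to 70.7), 14 of 74 from 10001 to 20000 (18.9%, 10.7 to 29.7) and 3 of 74 beyond (4.05%, 0.844 to 11.4). The whole list gave 56.6%, 21.2% and 3.11%. For distinct peaks in any tRNA window recovery in both was 27.5% (21.7 to 33.9), against 41.8% for peaks in snoRNA windows (34.0 to 49.9), 34.5% for snRNA (22.5 to 48.1) and 20.2% for miRNA (13.0 to 29.2).

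**Figure D2:**
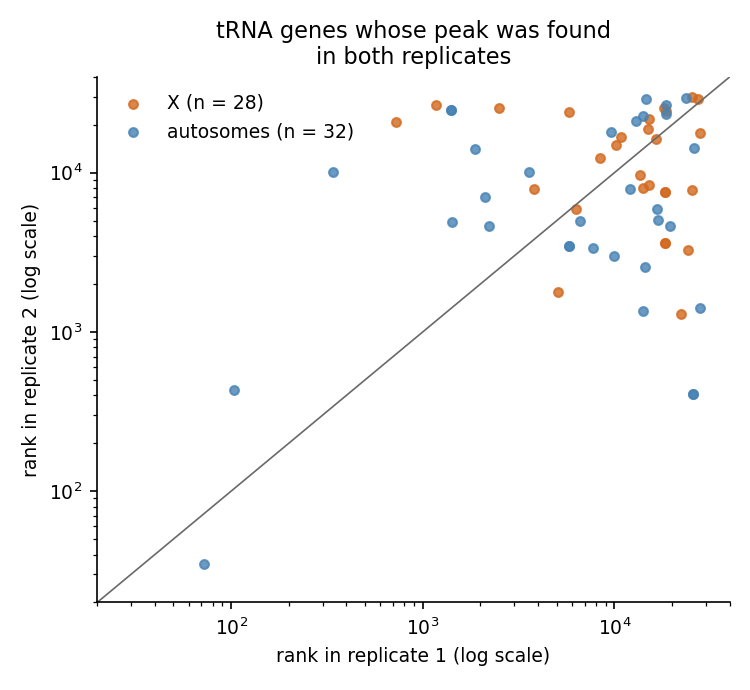
Rank in replicate 1 (horizontal axis, log scale) against rank in replicate 2 (vertical axis, log scale) of the 60 tRNA genes whose pooled summit was found in both, 28 on X and 32 on autosomes, with equal ranks as a line. ZK994.t2 and C15C6.t1 stand apart at the lower left, and most other points lie at ranks over 1000 in both replicates.

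Ranks of recovered peaks differed widely between replicates. Of the 60 genes, which had 55 distinct peaks, 4 had a rank within the first 5000 in both replicates. In 11 the ranks differed by more than 10 times. These counts, and that of ranks under 1000 in both replicates, were not made over all pooled peaks. They therefore cannot be read as a trait of tRNA genes. The median rank of the 60 was 14038 in replicate 1 and 8159 in replicate 2. By the poorer of the 2 ranks, the leading genes were ZK994.t2, C15C6.t1, Y57G11C.t1, Y22D7AL.t3 and T06H11.t3.

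In the pooled list, the shares on X and on the autosomes differed by less than their counting error. X carries 276 of the 612 nuclear tRNA genes, of which 92 had a peak (33.3%, 27.8 to 39.2). Autosomes carry 336, of which 124 had a peak (36.9%, 31.7 to 42.3). The difference of −3.57 percentage points had a Newcombe 95% interval of −11.05 to 4.04. Base positions with a summit in the window made up 36.0% of X and 33.9% of autosomes, and protein-coding genes 35.0% of X and 31.6% of autosomes. Among genes of all types the shares were 38.1% on X and 30.5% on autosomes, with X the higher. When clusters of neighbouring tRNA genes were counted once, 42.1% of clusters on X and 38.4% on autosomes had a peak. The difference was then 3.70 points (−5.40 to 12.85). A cluster counted if any of its genes had a peak, so this difference also depends on how many genes clusters hold. No share of base positions was computed for clusters. The list of replicate 1 gave a wider gap, with 97 genes on X (35.1%) and 147 on autosomes (43.8%), a difference of −8.61 points (−16.20 to −0.81). There, base positions gave 34.0% on X and 34.2% on autosomes, and genes of all types 37.8% and 30.5%. The share of tRNA genes on X thus lay near that of base positions, and the autosomal share lay above it. In the list of replicate 2 there were 88 genes on X (31.9%) and 120 on autosomes (35.7%), a difference of −3.83 points (−11.24 to 3.72). Base positions gave 36.8% on X and 33.7% on autosomes in that list, and genes of all types 37.4% and 30.3%.

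**Figure D3:**
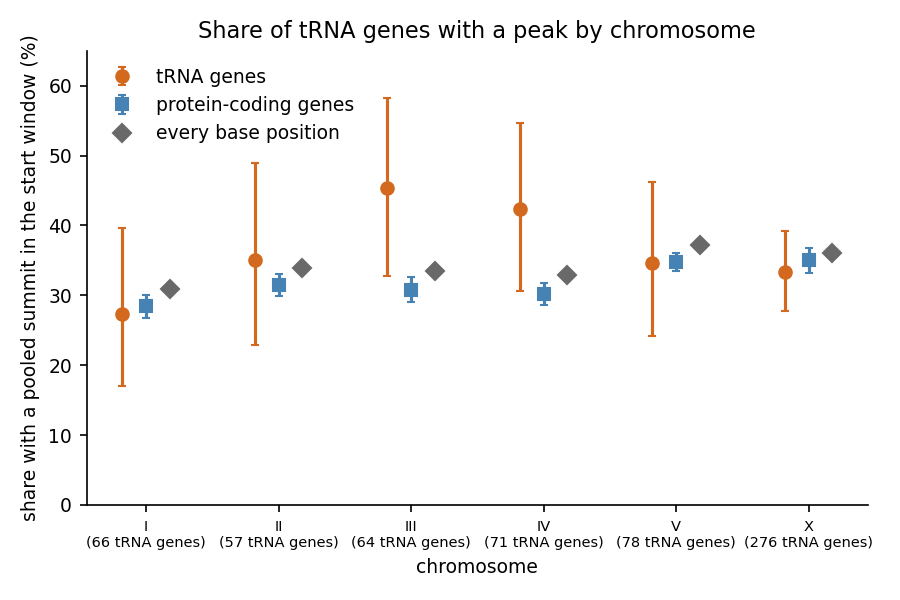
Share (vertical axis, %) of tRNA genes, of protein-coding genes and of every base position with a pooled summit in the start window, by chromosome (horizontal axis), with exact 95% intervals as bars for genes. The tRNA share ranged from 27.3% on I to 45.3% on III, and the interval of each chromosome included the share of base positions there.

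The highest peaks at tRNA genes lay on autosomes. All 12 tRNA genes with a peak among the first 1000 were autosomal, at 9 distinct peaks, and 0 of the 92 genes on X had one. X carried 145 of the first 1000 pooled peaks (14.5%) and 5560 of all 30000 (18.5%). The median rank was 14108 on X and 14029 on autosomes. After T06H11.t3, the highest genes on X were R11B5.t3 (tRNA-Ile, rank 1636, signal 104), ZK563.t1 (tRNA-Thr, rank 2367, signal 99.6) and the pair R04E5.t2 and R04E5.t3 (tRNA-Gly, rank 2690, signal 97.8). The peak of R11B5.t3 ranked 22181 in replicate 1 and 1288 in replicate 2, that of ZK563.t1 ranked 2493 and 25333, and that of the R04E5 pair was found at rank 6047 in replicate 2 only. On X, both replicates held the peaks of 28 of 92 genes (30.4%, 21.3 to 40.9), against 32 of 124 on autosomes (25.8%, 18.4 to 34.4).

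Summits were spread across the window, with few in the gene body, which is itself a small part of the window. The highest summit lay upstream of the start in 166 genes (76.9%, 70.6 to 82.3), and the upstream part makes up 76.9% of the window. It lay inside the gene body in 17 genes (7.87%, 4.65 to 12.3), a stretch that is 5.75% of the window, and past the end of the gene in 33 (15.3%, 10.8 to 20.8). Within 100 bp of the body there were 41 genes (19.0%, 14.0 to 24.9), against 21.1% of the window. The median position was 436 bp upstream of the start.

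Counted over all 612 nuclear tRNA genes, members or not, gene bodies held 19 pooled summits in 45.8 kb, or 0.415 per kb. The corresponding values were 0.480 per kb in replicate 1 (22 summits) and 0.349 in replicate 2 (16 summits). Flanks from 2001 to 5000 bp on either side held 0.294 per kb in the pooled list, and the nuclear genome 0.299. The first 50 bp of the genes held 17 pooled summits (0.556 per kb), 16 in replicate 1 and 11 in replicate 2, and the next 50 bp held 3, 8 and 5. The body density was thus above that of the flanks in all 3 lists, by small numbers of summits, and the difference was not tested. Past the genes, from 300 to 399 bp after the start, the density was 0.474 per kb in the pooled list and 0.458 in each replicate. This was above the body density in the pooled list and replicate 2, and below it in replicate 1. In replicate 1, the stretch from 150 to 199 bp held 16 summits, as many as the first 50 bp. In the pooled list, protein-coding genes held 0.362 per kb in the first 500 bp, and tRNA genes 0.353.

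**Figure D4:**
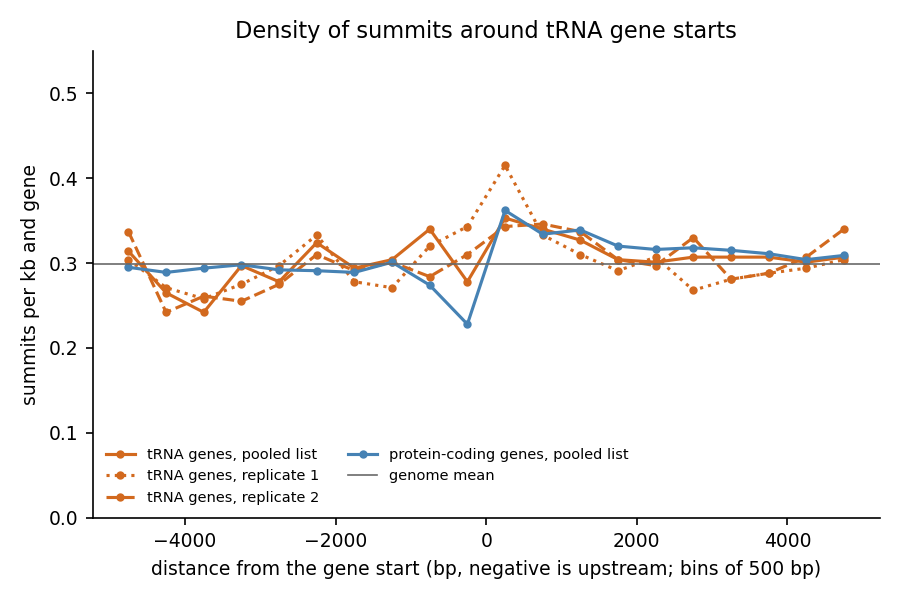
Summits per kb and gene (vertical axis) in bins of 500 bp by distance from the gene start (horizontal axis, bp, negative is upstream), for 612 tRNA genes in the pooled list and in each replicate and for protein-coding genes in the pooled list, with the genome mean of 0.299 as a line. The pooled values at tRNA genes range from 0.242 to 0.353, and the highest value of replicate 1, 0.415, lies in the first 500 bp after the start.

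The distance rule has 2 edges. The members nearest to the upstream edge were Y4C6B.t2 (summit 990 bp upstream, rank 13417) and Y53C12A.t1 (986 bp, rank 2869), and the genes just outside were F38E9.t1 (1012 bp, rank 9353) and ZK507.t1 (1030 bp, rank 11550). Nearest to the downstream edge were C37A2.t1 (290 bp downstream, rank 2580) and R02E12.t1 (289 bp, rank 11808) inside, and R03E1.t1 (303 bp, rank 15728) and F22F1.t9 (311 bp, rank 19995) outside.

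The genes with a summit inside the body had modest ranks. The highest was T09B4.t1, a tRNA-Ile gene on I, with rank 1701 and signal 104. The summit lay 32 bp after its start, and the peak ranked 5784 in replicate 1 and 3440 in replicate 2. Y22D7AL.t3, a tRNA-Met gene on III, had rank 1769 and signal 104, with rank 1426 in replicate 1 and 4924 in replicate 2. C16D9.t4, a tRNA-Tyr gene on V, had rank 3511 and signal 93.9, with rank 991 in replicate 1 and no summit within 100 bp in replicate 2.

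Many of these peaks also lay in the start window of a gene of another type. Of the 196 distinct peaks, 108 did so (55.1%, 47.9 to 62.2, tRNA and piRNA genes left out), against 32.2% of all pooled peaks. At 124 of the 216 genes with a peak (57.4%), and at 216 of the 396 without (54.5%), an annotated ncRNA gene started within 50 bp of the end of the tRNA gene, on the opposite strand in 122 and 213 of them. With such ncRNA genes left out, 75 of the 196 peaks lay in another start window (38.3%, 31.4 to 45.5), against 31.9% of all pooled peaks. Summits fell in exons of protein-coding genes for 74 of the 196 peaks (37.8%, 30.9 to 44.9), in introns for 43 (21.9%, 16.4 to 28.4) and outside these genes for 79 (40.3%, 33.4 to 47.5). All pooled peaks gave 44.0%, 27.0% and 29.0%. A protein-coding gene start lay in the window of 53 of the 216 genes with a peak (24.5%, 19.0 to 30.8) and of 62 of the 396 without (15.7%, 12.2 to 19.6). This was the feature with the widest gap of those compared. Its intervals overlapped only from 19.0 to 19.6, which does not show that the shares are equal, and the difference was not tested.

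Other features of the genes were alike with and without a peak. Genes with a peak lay in introns in 49.1% (42.2 to 55.9) and those without in 44.7% (39.7 to 49.7). An identical copy among the tRNA genes existed for 74.1% (67.7 to 79.8) and 78.0% (73.6 to 82.0), respectively. The A box core was found in 81.5% and 78.8% of the genes, against 8.31% of all 72-base windows of the nuclear genome, and the B box core in 95.8% and 96.0%, against 1.23% of windows. Both cores were sought on the gene's strand, and the windows were taken on both strands. TTTT followed within 50 bp of the gene in 98.1% and 99.2%, and the median GC content was 58.7% and 58.3%.

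The E-box was not more frequent at these peaks than in the list as a whole. CANNTG, which reads alike on both strands, lay within 50 bp of 71 of the 196 distinct summits (36.2%, 29.5 to 43.4), against 38.5% of all pooled summits. The summit near ZK994.t2 held 1 and the summit upstream of ZK563.t1 held 0.

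By isotype, the amino acid a tRNA carries, shares ranged around that of the genome. RefSeq gave an isotype for 607 of the 612 genes. Shares were highest for tRNA-Cys, with 8 of 13 genes (61.5%, 31.6 to 86.1), and tRNA-Thr, with 15 of 34 (44.1%, 27.2 to 62.1). They were lowest for tRNA-Ser, with 8 of 39 (20.5%, 9.30 to 36.5), and tRNA-Phe, with 3 of 14 (21.4%, 4.66 to 50.8). The single tRNA-Sec gene had no peak. Every interval of the 20 isotypes with several genes included 34.3%, the share of base positions.

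**Figure D5:**
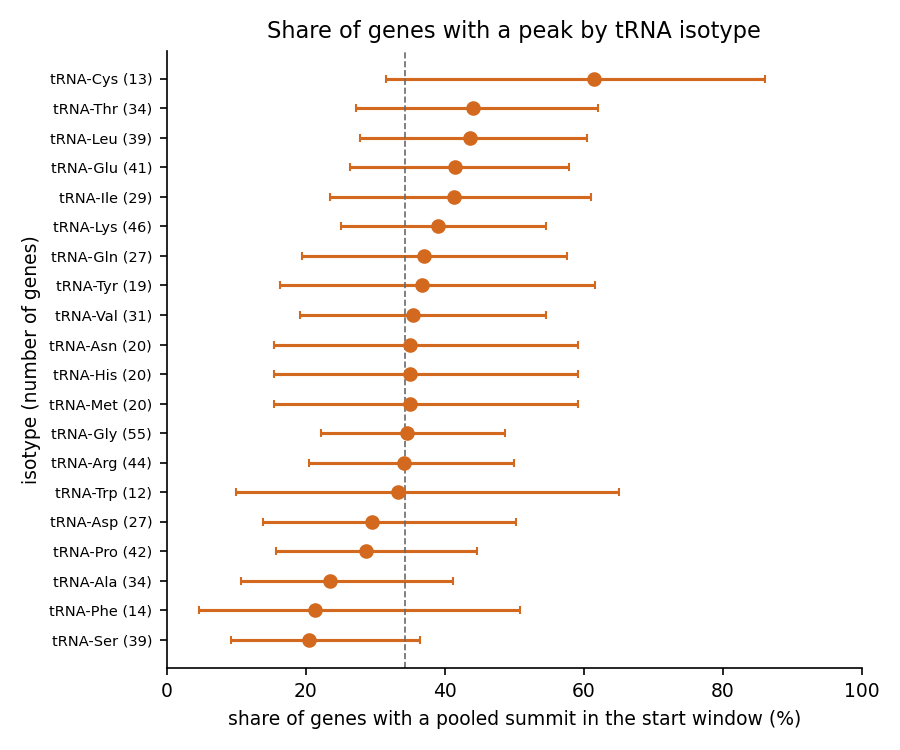
Share of genes with a pooled summit in the start window (horizontal axis, %) for each tRNA isotype with more than 1 gene (vertical axis, with the number of genes), with exact 95% intervals as bars and the share of base positions, 34.3%, as a dashed line. The points run from 20.5% for tRNA-Ser to 61.5% for tRNA-Cys, and all bars cross the dashed line.

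Identical copies of a gene could have a high peak, a low peak or none. The aligner is not given, so how reads that match several copies were placed is unknown, which limits this comparison. In 20 sets of at least 10 identical genes, 110 of 317 genes had a peak (34.7%). The set of ZK994.t2 has 14 tRNA-Lys genes, of which 5 had a peak, with ranks from 35 to 22657. The largest set, of 29 tRNA-Gly genes, had 5 with a peak at 3 distinct peaks, the best at rank 2690. The set of 12 identical tRNA-Cys genes had 8 with a peak, at 5 distinct peaks, so the high share of that isotype rested partly on shared peaks.

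Genes that make, charge or process tRNA were counted by the same window, which held a summit at 32.0% of protein-coding genes and 31.5% of all genes. The intervals of all 4 lists included these shares. Of 23 genes of the RNA polymerase III machinery, 9 had a pooled summit (39.1%, 19.7 to 61.5), the highest at rpb-6, a subunit shared by the nuclear polymerases (rank 1903, signal 103). Others were rpc-2, a large subunit of polymerase III (rank 6321), snpc-4, a subunit of the snRNA gene activator (rank 9435), and tbp-1, the TATA-binding protein (rank 25427). Of 32 aminoacyl-tRNA synthetase genes, 5 had one (15.6%, 5.28 to 32.8), among them iars-2 (rank 914, signal 112, 979 bp upstream). The summits of iars-2, snpc-4 and tbp-1 were found within 100 bp in replicate 2 but not in replicate 1. Those of rpb-6 and rpc-2 were found in both. Of 11 genes of tRNA processing and modification, 3 had one (27.3%, 6.02 to 61.0), at elpc-3, elpc-4 and hpo-31, with ranks from 13904 to 21396.

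Of 19 other genes of RNA polymerase III transcripts, among them those of 5S ribosomal RNA, 3 had a summit (15.8%, 3.38 to 39.6). The highest was rpr-1, the RNA of the enzyme RNase P, which trims the 5′ end of tRNA precursors. Its peak had rank 91 and signal 153, was thresholded, lay 98 bp downstream of the start and inside the gene, and was found in replicate 2 but not within 100 bp in replicate 1. The related gene mrpr-1, the RNA of RNase MRP, had rank 1617 and signal 105, 38 bp upstream of the start, and was found in both replicates.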

How the data were processed

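Per the labels, chromatin of whole L1 larvae was sheared by sonication to 200 to 800 bp. Per the text notes deposited with the files, the authors called relaxed peaks for each replicate and for both pooled, each with the same control, on ce11, and derived a thresholded list by the irreproducible discovery rate. The aligner and peak caller were not given in the sources used here. Signal values are as deposited, on a scale the authors do not state, and were used only for ranks within a list. A deposited column on a −log10 scale gave the estimated q, which exceeds 1 for 2877 of the 30000 pooled peaks, all within the first 5000 ranks, so it does not order peaks by strength. Summits were compared with Ensembl release 115 genes and RefSeq sequence of WBcel235, the assembly ce11 denotes, and all peaks lay within its chromosome lengths. A summit counted as found in a replicate within 100 bp. Shares carry exact Clopper-Pearson 95% intervals (SciPy 1.17.1). No test was made, since the peaks chose the genes. Named genes were the thresholded gene, the 15 highest, the 5 highest on X, the 5 best in the poorer replicate, the 3 highest with a summit in the body, 2 on each side of each edge, and list genes with ranks under 1000 (other list genes were named after their values were seen, as were the E-box count, the sets of identical genes and the ncRNA genes at tRNA gene ends). The members and lists were chosen with earlier results of these data known. The window rule was checked on planted positions. Alternatives changed the window, list, distance, replicate and unit counted.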

Additional observations from a re-analysis of the deposited data

How the results depend on the processing

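Of 44 alternative values, 32 stayed close to the main one (within 1.5 times for counts, within the 95% interval for others) and 12 moved. The 216 genes became 134 with 500 bp upstream, 73 within 200 bp of the gene body and 78 with the first 10000 peaks. These counts are 21.9%, 11.9% and 12.7% of the nuclear genes, against 22.7%, 13.7% and 12.5% of base positions. Recovery in both replicates, 27.8%, became 57.7% with the first 10000 peaks, 20.4% for summits within 50 bp and 40.3% within 200 bp. The median rank, 14029, became 16143 near the body and 3590 with the first 10000 peaks, and the share within 100 bp of the body, 19.0%, became 36.6% and 67.1% in the narrower windows. These follow from narrower windows, a shorter list, or a tighter or looser distance. With the list of 1 replicate used alone, genes numbered 208 to 244 and the median rank was 13880 to 14038. The share near the body was 17.8% to 20.9%, and X minus autosomes −8.61 to −3.83 points. For recovery, the pooled summits were kept and a match in 1 replicate was enough, which gave 49.5% to 69.9%. That is a looser measure than the match in both. The interval of X minus autosomes lay below 0 with replicate 1 alone (−16.20 to −0.81) and for pooled summits within 200 bp of the body (−10.26 to −0.04). X was lower in 6 of 8 alternatives, and higher with clusters counted once (3.70) and with an estimated q of 1 or less (0.93). The value for clusters also depends on their size, since any gene with a peak counted for its cluster. The q limit gave no stricter list: it removed 962 of the first 1000 pooled peaks and 11 of the 12 tRNA genes there. No paired analysis was possible because the replicates form 1 group. Depth is unknown, which limits how far a missing peak can be read.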
